A study of Homo sapiens with 21 samples.

Results

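Early genes of the EGR, IER and NR4A families and SRF, 10 in all, were followed through oxidative and DNA damage in hTERT-HPNE cells. The genes were taken by symbol from the deposited expression table and were EGR1, EGR2, EGR3, IER2, IER3, IER5, NR4A1, NR4A2, NR4A3 and SRF. All 10 were among the 23368 genes listed and among the 19694 genes tested. hTERT-HPNE is a non-transformed line from human pancreas that grows through a telomerase transgene, and all 7 groups were of this line.

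RNA was sequenced from untreated cells at 0 h and from cells 4, 8 and 24 h after 300 μM H2O2 or 400 ng/ml neocarzinostatin (NCS), a radiomimetic drug that breaks both strands of DNA. Each group held 3 biological replicates, which gave 21 libraries. Cells received fresh medium with the drug, and the medium held serum, EGF and puromycin in every group. Untreated cells were taken only at 0 h, so in every comparison with them the treatment and the time since the change of medium cannot be told apart, whereas H2O2 and NCS at the same time share that time. A clonal p53-mCherry reporter of the line was also used in the study, and which cells gave the RNA is not given in the sources used here.

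Immediate early genes are transcribed within minutes of a growth factor or stress signal, without new protein being made first. The EGR genes are driven largely by SRF, which binds CArG boxes and works with ETS-family partners that ERK phosphorylates or with actin-regulated MRTF coactivators. The NR4A genes respond to calcium, cAMP and stress signals through CREB and related factors, and their messages, like those of the EGR and IER genes, are short-lived.

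Values are rLog values, a log2 scale on which the authors shrank differences, most strongly for genes with few reads. A gene passed when its adjusted p was under 0.05 in limma's test over all 19694 genes, and a log2 difference over 1 in size that passed is named a change of more than 1. Groups whose libraries lay apart did not always pass. SRF at 4 h of H2O2 lay apart from untreated cells with an adjusted p of 0.0968 in limma. The share of all genes whose libraries lay apart is not given here. Levels of different genes were not compared, since these values are not per length. Each library is a whole culture, so a lower level in every cell and the loss of cells with a high level cannot be told apart.

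The labelled cell type was checked against markers. The rLog values of NES lay between 11.83 and 12.25 over the 21 libraries, those of VIM between 16.79 and 17.22 and those of TERT between 13.89 and 14.30. Of the duct keratins, KRT18 lay between 11.41 and 11.81, whereas KRT19 lay between 0.58 and 0.65. Of 9 markers of other cells, the islet gene INS, the acinar gene PRSS1 and PDX1 were listed at 0. The other 6 (EPCAM, CDH1, CPA1, GCG, PTPRC and PECAM1) were not at 0 in every library, and their levels are not given here. Those of the duct-lineage markers KRT8 and SOX9 are not given either. The median rLog value of a library lay between 7.145 and 7.189. Replicate 2 of H2O2 at 8 h stood apart, with a mean distance of 14.95 to the libraries of its group against 13.09 and 13.29 for the other 2 libraries of that group and 9.28 to 11 elsewhere, so 8 h results that change without it are given both ways.

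Promoter sequence was available for 7 of the 10 genes, from 250 bases before to 50 bases after the start, with 11 starts in all (RefSeq, GRCh38.p14). None was available for EGR3, IER3 and NR4A2, so no motif was searched for in these. The 3 promoters with a CArG box are shown here with the box in capitals, because SRF acts through this element, EGR1 was the gene that fell in every treated group, and SRF the gene that was lower after H2O2 than after NCS at 4 h. They lie at chr5:138465229-138465528 on the plus strand (EGR1), chr10:62816317-62816616 on the minus strand (EGR2) and chr6:43171019-43171318 on the plus strand (SRF), each written 5′ to 3′ along its gene.
EGR1: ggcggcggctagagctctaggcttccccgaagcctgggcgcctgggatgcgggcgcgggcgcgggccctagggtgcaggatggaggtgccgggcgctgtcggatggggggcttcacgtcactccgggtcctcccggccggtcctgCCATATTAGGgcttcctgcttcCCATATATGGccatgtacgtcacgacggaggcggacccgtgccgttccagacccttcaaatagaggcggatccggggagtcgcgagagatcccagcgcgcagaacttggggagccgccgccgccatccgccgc
EGR2: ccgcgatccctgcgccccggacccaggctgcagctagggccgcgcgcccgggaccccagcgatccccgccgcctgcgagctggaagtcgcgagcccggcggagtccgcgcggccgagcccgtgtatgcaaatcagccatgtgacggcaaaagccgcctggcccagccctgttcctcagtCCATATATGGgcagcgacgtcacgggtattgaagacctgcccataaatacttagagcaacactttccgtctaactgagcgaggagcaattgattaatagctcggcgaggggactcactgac
SRF: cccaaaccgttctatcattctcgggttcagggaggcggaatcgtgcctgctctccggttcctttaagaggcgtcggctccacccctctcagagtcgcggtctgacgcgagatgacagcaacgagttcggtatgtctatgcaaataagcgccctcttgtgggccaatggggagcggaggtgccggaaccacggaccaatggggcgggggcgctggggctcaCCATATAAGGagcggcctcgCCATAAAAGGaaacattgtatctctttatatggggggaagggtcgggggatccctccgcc
EGR1 had 2 boxes, whose first bases lay 105 and 83 bases before the start, and SRF had 2, at 30 and 10 bases before it. EGR2 had 1 box, at 71 bases before 1 of its 3 starts, and its letters, CCATATATGG, were those of the second EGR1 box. A CArG box was found at 3 of the 11 starts and in 1.29% of 35116 promoters of this length. The motifs are descriptions of letters and not of bound sites.

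The NR4A3 promoter, at chr9:99821635-99821934 on the plus strand, is shown with CRE half-sites (TGACG, searched on both strands) in capitals. It held the most of them among the 7 genes with promoter sequence.
NR4A3: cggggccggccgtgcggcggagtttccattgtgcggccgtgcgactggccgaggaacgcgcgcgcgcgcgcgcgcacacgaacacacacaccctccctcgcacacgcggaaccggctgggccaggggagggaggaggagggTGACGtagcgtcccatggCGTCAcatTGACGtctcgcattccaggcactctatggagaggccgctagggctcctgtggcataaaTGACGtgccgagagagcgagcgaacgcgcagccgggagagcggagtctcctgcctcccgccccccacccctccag
Its 4 half-sites began 109, 91, 83 and 25 bases before the start. A CRE half-site was found at 5 of the 11 starts, for 5 of the 7 genes, and in 24.6% of all promoters. The ETS site form CCGGAA was found at 4 of the 11 starts and in 17.2% of all promoters, and the EGR site GCGNGGGCG at 3 of the 11 and in 9.43%. Other forms of the ETS site were not searched for, so a promoter without CCGGAA may still hold one. The full CRE (TGACGTCA, which contains the half-site), the NR4A element AAAGGTCA, the AP-1 site TGANTCA and the NF-kB site had 0 matches in these windows, against 1.85%, 1.22%, 7.71% and 1.91% of all promoters.

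No treated library was taken before 4 h, so an earlier rise or peak of any of these genes could not be seen. At 4 h after H2O2 most of the 10 genes had risen, and EGR1 had fallen. Of the 10 genes, 8 passed as higher and 1 as lower than in untreated cells, beside 26.2% and 19.7% of all genes tested, and only SRF did not pass. NR4A1, NR4A3, IER3 and EGR3 rose by more than 1, which 0.655% of all genes did. The median size of the log2 difference was 0.46 for the 10 genes and 0.08 for all genes. After NCS at 4 h, 4 passed as higher (NR4A1, IER3, IER5 and SRF) and 1 as lower (EGR1), beside 7.47% and 9.72% of all genes. The plot of values by library shows all 10 genes.

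**Figure D1:**
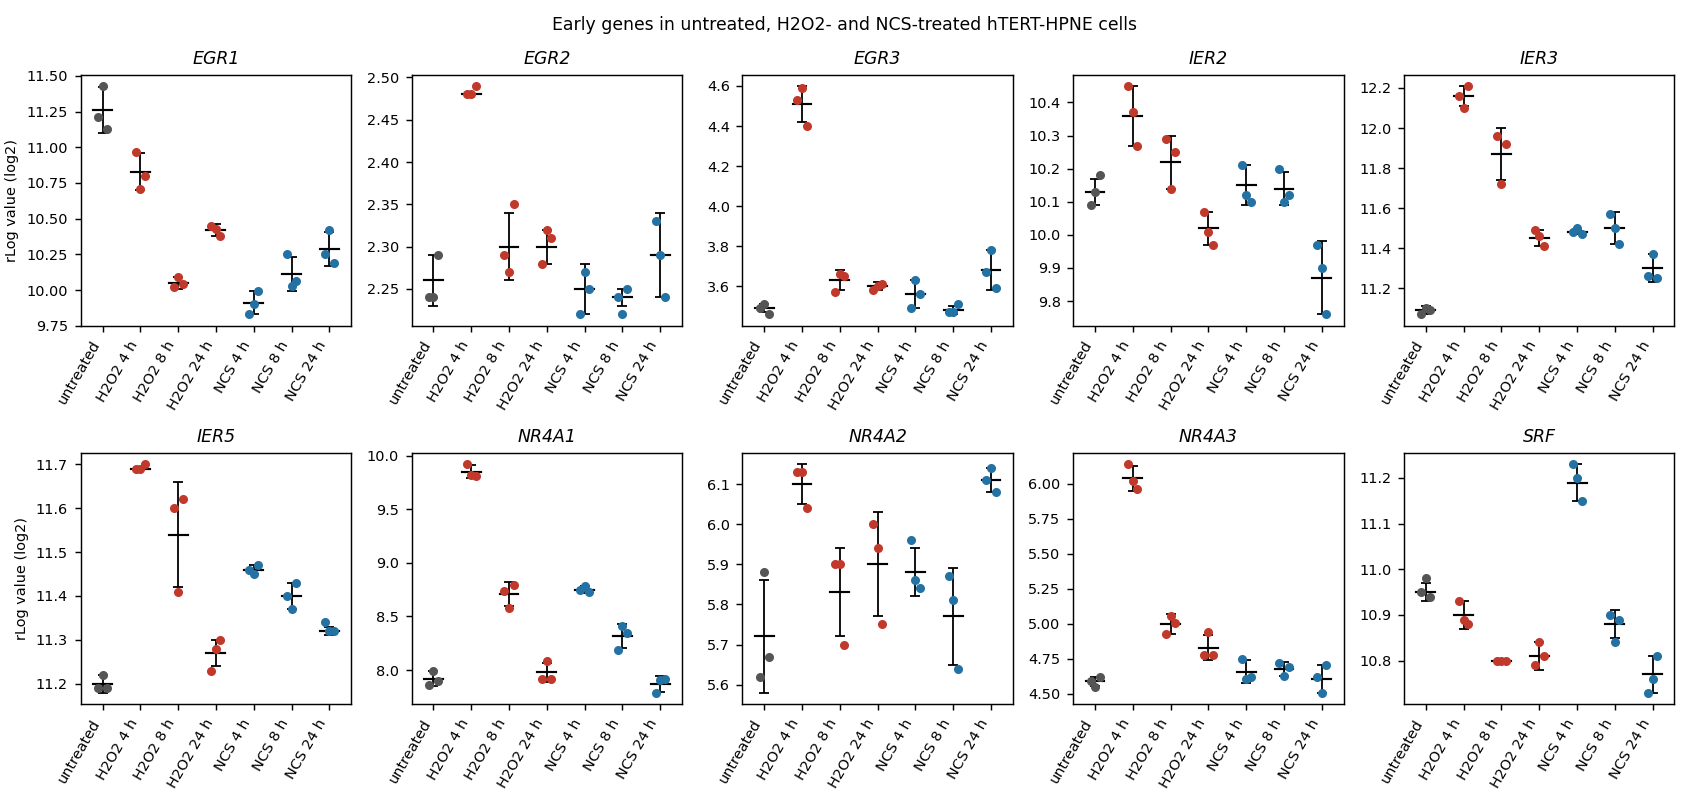
rLog value (log2 scale, vertical axes differing by gene and not starting at 0) of each of the 10 early genes in the 7 groups, with points for the 3 libraries of a group, a bar for their mean and error bars for the SD. NR4A1, NR4A3, EGR3 and IER3 were at their highest 4 h after H2O2, EGR1 was at its highest in untreated cells, with a mean of 11.26, and SRF was at its highest 4 h after NCS, with a mean of 11.19.

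NR4A1, NR4A2 and NR4A3 encode orphan nuclear receptors whose activity is set mainly by how much of them is made. The rLog values of NR4A1 (Nur77) were 7.86, 7.99 and 7.90 in untreated cells, 9.92, 9.82 and 9.81 at 4 h of H2O2, 8.74, 8.58 and 8.79 at 8 h and 7.92, 8.08 and 7.92 at 24 h. After NCS the 4 h libraries had 8.75, 8.78 and 8.73, the 8 h libraries 8.19, 8.41 and 8.35, and the 24 h libraries 7.79, 7.91 and 7.92. At 4 and 8 h of both treatments all libraries lay above the untreated ones, and at 24 h of both the groups overlapped. The log2 difference from untreated cells was 1.94 at 4 h of H2O2 (SE 0.063, adjusted p = 8.58e-14 in limma), which ranked 15 of 19694 genes, and 0.84 at 4 h of NCS (SE 0.063, adjusted p = 2.62e-08), which ranked 35. On the rLog scale these were 3.82-fold and 1.79-fold. At 8 h the differences were 0.79 and 0.40 (adjusted p = 1.91e-08 and 8.66e-05), and at 24 h neither treatment passed.

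NR4A3 (NOR1) rose after H2O2 and did not pass at any time after NCS. Untreated cells had rLog values of 4.59, 4.55 and 4.62, and after H2O2 the 4 h libraries had 6.14, 6.02 and 5.96, the 8 h libraries 4.93, 5.06 and 5.01, and the 24 h libraries 4.78, 4.94 and 4.78. After NCS they lay between 4.51 and 4.75 over the 9 libraries. The H2O2 libraries of each time lay above all untreated ones, with log2 differences of 1.45 (SE 0.063, adjusted p = 3.38e-12), 0.41 (adjusted p = 3.85e-05) and 0.24 (adjusted p = 0.00403). The level at 4 h of H2O2 ranked 47 of 19694 genes by its difference.

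NR4A2 (Nurr1) had another time course. Its rLog values were 5.62, 5.88 and 5.67 in untreated cells, 6.13, 6.13 and 6.04 at 4 h of H2O2, and 6.11, 6.14 and 6.08 at 24 h of NCS. These 2 treated groups lay above the untreated libraries, and the values of the other treated groups, lay below those of both, and their groups did not pass. The log2 difference was 0.37 at 4 h of H2O2 (SE 0.079, adjusted p = 0.000772) and 0.39 at 24 h of NCS (SE 0.079, adjusted p = 0.000615). Between 8 and 24 h of NCS it rose by 0.34 (adjusted p = 0.00278), while NR4A1 fell by 0.45 (adjusted p = 2.14e-05).

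EGR1, EGR2 and EGR3 encode zinc finger factors that bind the same GC-rich sites. EGR1, the best known of them as a growth factor response gene, fell in all 6 comparisons with untreated cells. Its rLog values were 11.21, 11.43 and 11.13 in untreated cells, 10.97, 10.71 and 10.80 at 4 h of H2O2, 10.02, 10.09 and 10.04 at 8 h and 10.45, 10.43 and 10.38 at 24 h. After NCS the 4 h libraries had 9.83, 9.90 and 9.99, the 8 h libraries 10.25, 10.03 and 10.06, and the 24 h libraries 10.25, 10.42 and 10.19. No treated library reached the lowest untreated one.

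The log2 differences of EGR1 were -0.43, -1.20 and -0.84 at 4, 8 and 24 h of H2O2 (SE 0.079 each, adjusted p = 0.000195, 1.6e-09 and 5.73e-08) and -1.35, -1.15 and -0.97 at the same times of NCS (adjusted p = 8.94e-10, 3.86e-09 and 9e-09). At 4 h of NCS the level was 2.55-fold lower on the rLog scale, and counted from the gene that fell most, EGR1 ranked 7 of 19694 genes there and 11 at 8 h of H2O2. A fall of more than 1 was found in 0.127% of all genes at 4 h of NCS, in 0.198% at 8 h of H2O2 and in 0.274% at 8 h of NCS. The lowest EGR1 mean was at 4 h after NCS (9.91) and at 8 h after H2O2 (10.05), 2 groups that did not differ by the test (adjusted p = 0.18), and the 4 and 8 h levels after NCS did not differ by it either (adjusted p = 0.107).

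EGR3 rose at 4 h of H2O2 and lay close to its untreated level by 8 h. The rLog values of EGR3 were 3.49, 3.51 and 3.46 in untreated cells, 4.53, 4.59 and 4.40 at 4 h of H2O2, 3.57, 3.66 and 3.65 at 8 h and 3.58, 3.60 and 3.61 at 24 h, and between 3.47 and 3.78 over the 9 NCS libraries. The log2 difference was 1.02 after 4 h (SE 0.053, adjusted p = 3.74e-11) and 0.14 after 8 h (adjusted p = 0.0468), and after 24 h of NCS it was 0.19 (adjusted p = 0.00699). The 8 h difference did not pass in 14 of the 21 fits that left out 1 library, among them the one without replicate 2 of that group (0.12, adjusted p = 0.128), and the one at 24 h of NCS did not pass without NCS 24 h replicate 2 (0.14). EGR2, an EGR factor known from myelination, lay between 2.22 and 2.49 in all libraries, where few reads are behind a value. Its highest values were the 3 at 4 h of H2O2 (2.48, 2.48 and 2.49), against 2.24, 2.24 and 2.29 in untreated cells, a log2 difference of 0.23 (SE 0.027, adjusted p = 1.97e-06).

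IER2, IER3 and IER5 encode small proteins that share a name for their rapid induction rather than one function. IER3 (IEX-1) is known as a modulator of apoptosis downstream of ERK and NF-kB, and it passed as higher in all 6 comparisons. In untreated cells its rLog values were 11.07, 11.10 and 11.09, with 12.16, 12.10 and 12.21 at 4 h of H2O2, 11.96, 11.72 and 11.92 at 8 h and 11.49, 11.46 and 11.41 at 24 h. After NCS the 4 h libraries had 11.48, 11.50 and 11.47, the 8 h libraries 11.57, 11.50 and 11.42, and the 24 h libraries 11.26, 11.37 and 11.25. All treated libraries lay above all untreated ones.

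The log2 differences of IER3 were 1.07, 0.78 and 0.37 after H2O2 (SE 0.051 each, adjusted p = 1.09e-11, 1.51e-09 and 8.46e-06) and 0.39, 0.41 and 0.21 after NCS (adjusted p = 1.68e-05, 5.68e-06 and 0.00257). After NCS the 4 and 8 h levels did not differ by the test, so the IER3 level fell from 4 to 8 h after H2O2 (by 0.29, adjusted p = 0.000138) and was not found to fall then after NCS. Without replicate 2 of H2O2 at 8 h the difference at 8 h was 0.86.

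IER5, known for promoting the activity of the heat shock factor HSF1, rose in 5 of the 6 comparisons. Its rLog values were 11.19, 11.22 and 11.19 in untreated cells, 11.69, 11.69 and 11.70 at 4 h of H2O2, 11.60, 11.41 and 11.62 at 8 h, and 11.46, 11.45 and 11.47 at 4 h of NCS. The libraries of a group lay close together except at 8 h of H2O2, where replicate 2 was the lowest. The log2 differences were 0.50 and 0.35 at 4 and 8 h of H2O2 (SE 0.037 each, adjusted p = 4.3e-09 and 5.98e-07) and 0.27, 0.20 and 0.13 at 4, 8 and 24 h of NCS (adjusted p = 4.04e-05, 0.000488 and 0.00998). IER2, a nuclear protein, rose by 0.23 at 4 h of H2O2 (SE 0.054, adjusted p = 0.00176) and fell by 0.26 at 24 h of NCS (adjusted p = 0.000668). The IER2 libraries had rLog values of 10.09, 10.13 and 10.18 in untreated cells, 10.45, 10.37 and 10.27 at 4 h of H2O2 and 9.97, 9.90 and 9.76 at 24 h of NCS.

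SRF, the MADS-box factor itself, was the gene of the 10 that moved in the other direction from the rest between the treatments at 4 h. The rLog values of SRF were 10.95, 10.98 and 10.94 in untreated cells, 10.93, 10.89 and 10.88 at 4 h of H2O2, and 11.23, 11.20 and 11.15 at 4 h of NCS. The NCS libraries lay above all others, and the log2 difference was 0.24 (SE 0.026, adjusted p = 2.12e-06). From 8 h on SRF was lower than in untreated cells, by log2 differences of -0.15 and -0.14 at 8 and 24 h of H2O2 (adjusted p = 0.000125 and 0.000225) and of -0.07 and -0.19 at the same times of NCS (adjusted p = 0.0472 and 1e-05). The value at 8 h of NCS did not pass in 14 of the 21 fits that left out 1 library (-0.082 to -0.055).

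At 8 h of H2O2 5 passed as higher and 2 as lower, beside 18.8% and 18.6% of all genes, and at 24 h 2 and 2, beside 20.2% and 19.9%. Without replicate 2 of H2O2 at 8 h these 8 h counts were 4 and 2. At 8 h of NCS 3 passed as higher and 2 as lower, beside 10.5% and 13.3%, and at 24 h 4 and 3, beside 19.6% and 18.4%. With only the groups compared in the fit, 7 of the 10 genes passed at 24 h of H2O2 in place of 4. The share of all genes in that fit is not given here, so whether the change is particular to these genes is not known.

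**Figure D2:**
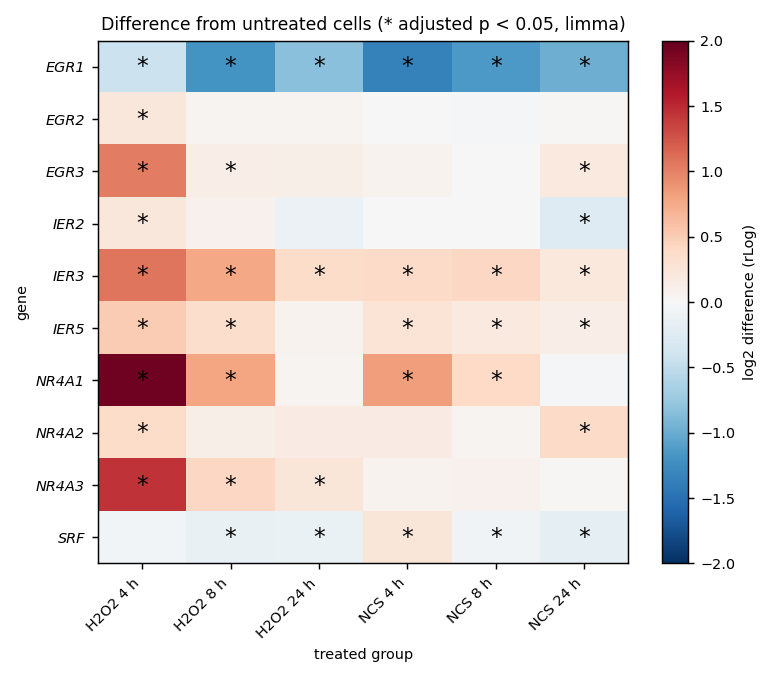
Log2 difference of the rLog value from untreated cells for the 10 genes (rows) in the 6 treated groups (columns), with red for higher, blue for lower and a star where the adjusted p of limma was under 0.05. EGR1 was lower in all 6 columns and IER3 higher in all 6, and 9 of the 10 genes carried a star at 4 h of H2O2.

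Within each treatment the steps in time were compared. From 4 to 8 h after H2O2 all 10 genes fell and passed, beside 27.7% of all genes that passed as lower, and NR4A1 and NR4A3 fell by 1.14 and 1.04 on the log2 scale, a fall of more than 1 that 0.162% of all genes shared (SE 0.063 each, adjusted p = 1.74e-10 and 4.69e-10). EGR3 fell by 0.88 (SE 0.053, adjusted p = 4.61e-10) and EGR1 by 0.77 (SE 0.079, adjusted p = 2.77e-07). Without replicate 2 of H2O2 at 8 h 9 of the 10 passed, and IER2 did not (adjusted p = 0.189). IER2 also did not pass without replicate 1 or 2 of H2O2 at 4 h or replicate 3 at 8 h, and NR4A2, which fell by 0.27 (adjusted p = 0.0105), did not pass without replicate 3 at 8 h (-0.20). From 8 to 24 h after H2O2 EGR1 rose by 0.37 (adjusted p = 0.000878) and 5 genes fell, beside 19.4% higher and 23.2% lower, among them NR4A1 by 0.73 (adjusted p = 2.84e-08) and IER3 by 0.42 (adjusted p = 2.22e-06). The fall of NR4A3 in this step (by 0.16, adjusted p = 0.0431) did not pass in 7 of the 21 fits that left out 1 library (-0.16 to -0.13), and 4 genes fell without replicate 2 of H2O2 at 8 h.

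From 4 to 8 h after NCS only NR4A1 and SRF passed, both of which fell by 0.43 (adjusted p = 0.000109) and 0.31 (adjusted p = 2.49e-07), beside 7.5% of all genes that were lower and 6.16% that were higher. From 8 to 24 h EGR3 and NR4A2 rose and IER2, IER3, NR4A1 and SRF fell, beside 14.9% and 15.0% of all genes. EGR3 did not pass in this step without NCS 24 h replicate 2 (0.15).

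H2O2 and NCS were then compared at the same time, which sets apart neither dose nor chemistry but shares the time since the change of medium. At 4 h all 10 genes differed, 9 of them higher after H2O2 and SRF lower, beside 26.3% and 18.0% of all genes. NR4A1 and NR4A3 differed by more than 1, as 0.559% of all genes did. The median size of the log2 difference was 0.48 for the 10 genes and 0.07 for all genes.

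The log2 difference of H2O2 minus NCS at 4 h was 1.38 for NR4A3 (SE 0.063, adjusted p = 8.49e-12), 1.10 for NR4A1 (SE 0.063, adjusted p = 1.55e-10), 0.95 for EGR3 (SE 0.053, adjusted p = 1.1e-10) and 0.92 for EGR1 (SE 0.079, adjusted p = 2.7e-08). The first 3 of these were above untreated cells after H2O2, whereas EGR1 was below untreated cells after both drugs and less so after H2O2. The differences of IER3 (0.68), EGR2 (0.24), IER5 (0.23), IER2 (0.22) and NR4A2 (0.21) were smaller, with adjusted p of 4.8e-09, 1.31e-06, 5.11e-05, 0.00275 and 0.0353. That of NR4A2 did not pass without replicate 1 or 2 of H2O2 or replicate 2 or 3 of NCS at 4 h (0.19 to 0.20). The difference of SRF was -0.29, lower after H2O2 (SE 0.026, adjusted p = 3.92e-08).

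At 8 h 5 genes were higher after H2O2 and SRF lower, beside 18.7% and 15.4% of all genes. With only the groups compared in the fit 3 genes passed in place of 6, and the share of all genes in that fit is not given here. The differences were 0.39 for NR4A1, 0.37 for IER3, 0.32 for NR4A3, 0.15 for IER5, 0.14 for EGR3 and -0.08 for SRF (adjusted p = 9.31e-05, 1.55e-05, 0.000577, 0.00435, 0.0429 and 0.0286). Without replicate 2 of H2O2 at 8 h EGR3 (adjusted p = 0.118) and SRF (adjusted p = 0.0505) did not pass, whereas EGR2 did (0.08, adjusted p = 0.0429). In all, EGR3 did not pass in 12 of the 21 fits that left out 1 library, and SRF in 5, all of them of the 8 h groups. At 24 h 2 genes passed, beside 11.0% of all genes that were higher, with NR4A3 at 0.22 (adjusted p = 0.0165) and IER3 at 0.16 (adjusted p = 0.0336), and neither passed without H2O2 24 h replicate 2. NR4A3 also did not pass without NCS 24 h replicate 2 (0.17 either way), nor did IER3 without H2O2 24 h replicate 1 or NCS 24 h replicate 1 or 3 (0.14 to 0.15). EGR1 did not differ by the test between the treatments at 8 or 24 h. The difference between the treatments itself changed from 4 to 24 h for 9 of the 10 genes, more positive at 4 h for 8 and more negative for SRF, beside 22.7% and 16.6% of all genes.

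**Figure D3:**
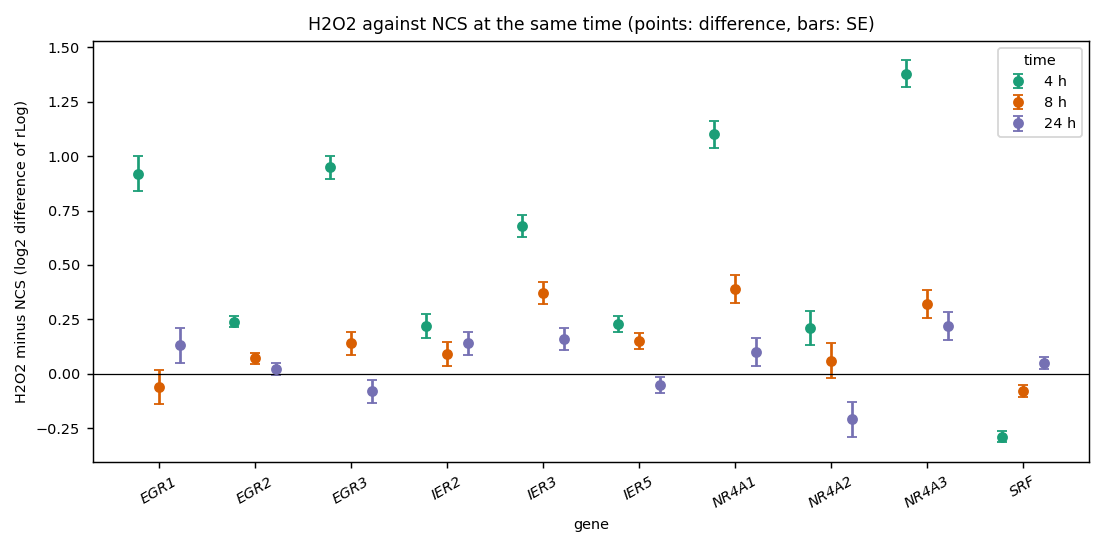
Log2 difference of the rLog value between H2O2 and NCS (H2O2 minus NCS) at 4, 8 and 24 h for each of the 10 genes, with points for the difference and bars for its SE. The 4 h points were the highest for 9 genes, up to 1.38 for NR4A3, and the 4 h point of SRF lay below 0, at -0.29.

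The order of levels over the 7 groups differed between the genes. NR4A1 was highest at 4 h of H2O2 (mean rLog 9.85), followed by 4 h of NCS and 8 h of H2O2 (8.75 and 8.71, not different by the test), 8 h of NCS (8.32) and then 24 h of H2O2, untreated cells and 24 h of NCS (7.98, 7.92 and 7.87), whose neighbours did not differ. EGR1 was highest in untreated cells (11.26), then at 4 h of H2O2 (10.83) and 24 h of H2O2 (10.42), and below that no neighbours in the order differed. Across these lower groups, 4 h of NCS was below 24 h of H2O2 (-0.51, adjusted p = 3e-05 in limma). EGR3 was highest at 4 h of H2O2 (4.51), and none of the other 6 groups differed from its neighbour in the order. SRF was highest at 4 h of NCS (11.19), and none of the 6 groups below it differed from its neighbour in the order. Groups further apart in the order could still differ. EGR3 was higher at 24 than at 8 h of NCS (0.20), and SRF lower at 24 h of NCS than in untreated cells (-0.19).

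The genes whose 7 group means followed a called member most closely were looked up among non-members. For NR4A1 they were MOCS3, PFKFB3 and IL8 (Pearson r of 0.995, 0.991 and 0.985 over 7 group means), and for NR4A3 they included CELSR2 and INPP5J (0.997 and 0.995). For IER3 they were C12orf44, ATF3 and KIAA1324 (0.993, 0.986 and 0.978), and for EGR3 MGC45800, AVIL and ZBTB46 (0.990, 0.989 and 0.980). For EGR1 the values were lower, with ICK at 0.937, ZNF395 at 0.937 and G2E3 at 0.926. These values are descriptions over group means that share libraries and treatments. Among the 10 genes themselves, r over the group means was 0.98 between EGR2 and EGR3, 0.97 between EGR2 and NR4A3 and 0.95 between IER5 and NR4A1, whereas EGR1 had 0.31 with EGR3 and -0.17 with IER3.

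Genes that act with these factors were described from lists. NAB1 and NAB2 encode corepressors that bind EGR proteins. NAB2 rLog values were 10.20, 10.19 and 10.24 in untreated cells, 10.94, 10.92 and 11.03 at 4 h of H2O2 and 10.13, 10.13 and 10.10 at 4 h of NCS, so the 4 h H2O2 libraries lay above both other groups. The log2 difference from untreated cells at 4 h of H2O2 was 0.75 for NAB2 (SE 0.037, adjusted p = 2.08e-11) and 0.46 for NAB1 (SE 0.048, adjusted p = 2.92e-07), and at 8 h NAB2 was lower (-0.18, adjusted p = 0.000871). Of the 7 corepressors, NR4A partners and further EGR and IER genes, 4 were higher and 1 lower at 4 h of H2O2, beside 26.2% and 19.7% of all genes, and at 4 h of NCS limma passed 0 of them, with 2 at an unadjusted p under 0.05.

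Of 6 SRF cofactors, 2 passed as higher and 3 as lower at 4 h of H2O2, beside 26.2% and 19.7% of all genes. MKL2 (MRTF-B), an actin-regulated SRF coactivator, had rLog values of 8.76, 8.74 and 8.89 in untreated cells and of 7.98, 7.95 and 7.89 at 4 h of H2O2. Its log2 difference was -0.86 (SE 0.047, adjusted p = 8.02e-11), and that of MKL1 (MRTF-A) was -0.40 (SE 0.049, adjusted p = 2.31e-06). At 4 h of NCS neither passed, and H2O2 minus NCS was -0.77 for MKL2 (adjusted p = 3.54e-10). Later after H2O2, MKL2 had -0.25 at 8 h and did not pass at 24 h (-0.03, adjusted p = 0.716 in limma). MKL1 did not pass at 8 h of H2O2 (0.08) and had -0.14 at 24 h (adjusted p = 0.0319). MKL2 was lower at 8 and 24 h of NCS (-0.21 and -0.18), where MKL1 did not pass.

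Cytoskeletal and matricellular genes known as MRTF-SRF targets, 19 in all, were mostly lower at 8 and 24 h of H2O2 and at 24 h of NCS. At 4 h of H2O2 6 passed as higher and 7 as lower, beside 26.2% and 19.7% of all genes. At 8 h 1 and 17 passed, beside 18.8% and 18.6%, and at 24 h 1 and 18, beside 20.2% and 19.9%. At 4 h of NCS 6 passed as higher and 2 as lower, beside 7.47% and 9.72% of all genes. At 8 h 2 and 4 passed, beside 10.5% and 13.3%, and by 24 h 2 and 14, beside 19.6% and 18.4%. CTGF, a secreted matrix protein, had log2 differences of -0.34, -0.69 and -0.73 at 4, 8 and 24 h of H2O2 and of -0.13, -0.23 and -0.41 after NCS. ANKRD1, a muscle-related transcriptional cofactor, had -0.33, -0.23 and -0.22 after H2O2, and 0.14, 0.25 and -0.08 after NCS. The median log2 difference of the 19 was -0.33 at 24 h of H2O2 and -0.16 at 24 h of NCS, against -0.0003 and -0.0001 for all genes.

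**Figure D4:**
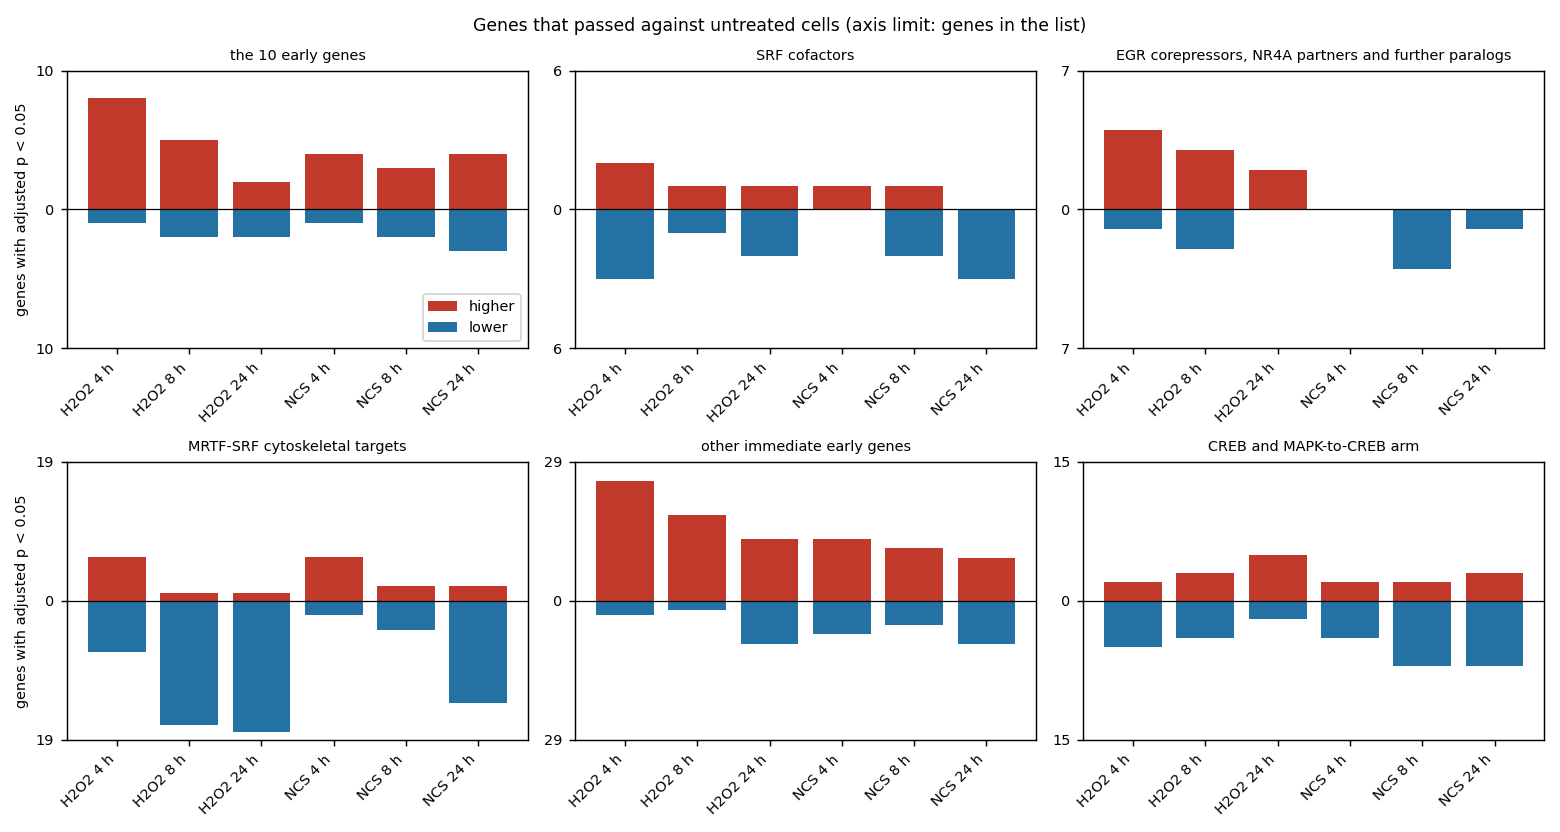
Number of genes with an adjusted p under 0.05 against untreated cells, higher (red, up) or lower (blue, down), in each treated group for the 10 early genes and 5 lists, with each vertical axis running to the number of genes in the list. Of 29 other immediate early genes 25 were higher at 4 h of H2O2, and of 19 MRTF-SRF targets 18 were lower at 24 h of H2O2.

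Of 29 other immediate early genes, 25 were higher and 3 lower at 4 h of H2O2, beside 26.2% and 19.7% of all genes, and 13 and 7 at 4 h of NCS, beside 7.47% and 9.72%. Of the 29, 12 rose by more than 1 at 4 h of H2O2, as 0.655% of all genes did. They were ARC, ATF3, BTG2, CSRNP1, FOSB, GADD45B, JUNB, KLF4, MAFF, PPP1R15A, SIK1 and TRIB1, with log2 differences between 1.02 for MAFF and 4.88 for FOSB. SIK1, a kinase gene that CREB activates, rose by 1.91 and the synaptic gene ARC by 1.68. FOS, a target of SRF as EGR1 is, was higher at 4 h of H2O2 (0.76, adjusted p = 3.24e-07) and lower at 24 h of H2O2 (-1.02) and at 4, 8 and 24 h of NCS (-0.92, -0.99 and -1.09), so that EGR1 and FOS were both lower at all 3 times of NCS.

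Of 15 genes of the CREB arm, 2 passed as higher and 5 as lower at 4 h of H2O2, beside 26.2% and 19.7% of all genes, and 2 and 4 at 4 h of NCS, beside 7.47% and 9.72%. CREM, a CREB relative that cAMP induces, had a log2 difference of 0.31 at 4 h of H2O2 (adjusted p = 1.24e-06). It also passed as higher at 8 and 24 h of H2O2 (0.2 and 0.24) and at 4, 8 and 24 h of NCS (0.15, 0.26 and 0.13). The coactivator gene EP300 had -0.18 at 4 h of H2O2 (adjusted p = 8.08e-06) and -0.14 at 4 h of NCS. EP300 was higher at 8 and 24 h of H2O2 (0.15 and 0.19) and did not pass at those times of NCS. No gene of this list changed by more than 1 in any of the 9 comparisons of treated groups with untreated cells or between treatments.

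Reads of neighbouring genes could enter a count. The nearest listed gene upstream on the same strand lay between 6.9 and 976.3 kb away in the GENCODE v29 annotation, and its log2 difference at 4 h of H2O2 lay between -0.08 and 0.19. EGR3, IER2, IER3 and NR4A1 each overlap an annotated gene on the other strand, and whether reads were counted by strand is not given in the sources used here, so reads of the overlap cannot be told apart.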

How the data were processed

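Poly(A) RNA of 21 libraries (7 groups of 3) was sequenced by the authors, aligned with HISAT2 and counted with htseq-count, and the counts were turned into the deposited log2 values (rLog, DESeq2). The submitters' processing notes name hg19, and the annotation and strand setting are not given in the sources used here. No counts were used here, so library depth is unknown and no interval based on it is given.

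The log2 values were used as deposited. Genes at 0 in every library (3674 of 23368) were left out. All 7 groups were fitted together with limma 3.58.1 in R 4.3.3, with a trended prior variance and p-values adjusted by Benjamini-Hochberg over 19694 genes, and 14 comparisons were made. The fit was tested on simulated data. Exact permutation tests of 3 against 3 libraries cannot go below p = 0.1 and were not used for calls. The 10 genes and the lists were chosen with earlier results of these data known. Named were the 10 genes, from each list those called in any of 9 comparisons (or else the 2 with the largest difference at 4 h of H2O2), and the 3 genes most like each called member, with a mean of at least 5 and group means that ranged over at least 0.5. A gene that met this rule is not reported here. Alternatives were median alignment, quantile normalization, a mean of at least 5, only the groups compared, no trend, a log2 difference over 1, a replicate block and each library left out.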

Additional observations from a re-analysis of the deposited data

Results flagged for a closer look

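For 9 of the 10 genes the difference between H2O2 and NCS at 4 h was not the same as that at 24 h, by a test of the change itself in limma (beside 22.7% of all genes higher and 16.6% lower). The log2 difference of H2O2 minus NCS at 4 h less that at 24 h was 1.16 for NR4A3 (SE 0.089, adjusted p = 1.55e-08), 1.03 for EGR3 (SE 0.075, adjusted p = 8.32e-09) and 1.00 for NR4A1 (SE 0.090, adjusted p = 1.04e-07). It was 0.79 for EGR1 (adjusted p = 1.89e-05), 0.52 for IER3 (adjusted p = 1.59e-05) and 0.43 for NR4A2 (adjusted p = 0.00537). It was 0.28 for IER5 (adjusted p = 0.000282) and 0.22 for EGR2 (adjusted p = 0.000205). For SRF it was -0.34 (SE 0.037, adjusted p = 8.84e-07), the only value below 0. IER2 did not pass.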

How the results depend on the processing

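Of 140 results (10 genes in 14 comparisons), 88 passed. Apart from a log2 difference over 1, 74 of these passed under every alternative that gave them a value, and EGR2, EGR3 and NR4A3 had none with a mean of at least 5. At a log2 difference over 1, the number of genes that passed against untreated cells was 4, 1 and 0 at 4, 8 and 24 h of H2O2 and 1, 1 and 0 at the same times of NCS. Of all genes, 0.655% were higher at 4 h of H2O2 and 0.198% lower at 8 h by this rule. At 4 and 8 h of NCS 0.127% and 0.274% were lower by it. The number was 2, 0 and 0 between H2O2 and NCS at 4, 8 and 24 h, beside 0.559% of all genes higher at 4 h. For the steps in time it was 2 and 0 after H2O2 and 0 and 0 after NCS, beside 0.162% of all genes lower in the first step after H2O2. For the change of H2O2 minus NCS it was 2, EGR3 and NR4A3, whose values ranked 96 and 60 of 19694 genes. The share of all genes over 1 in that comparison is not given here. For the alternative fits that follow, the share of all genes is not given here. With only the groups compared in the fit, the number of genes that passed was 7 of 10 at 24 h of H2O2. Between treatments it was 3 and 1 at 8 and 24 h. Between treatments at 24 h, where 2 passed, it was 4 with the replicate block. Leaving out single libraries gave 0 to 3 there, with 0 without H2O2 24 h replicate 2 and 1 without NCS 24 h replicate 2 or 3. The cause of these changes was not tested. The deviations of same-numbered replicates had r between -0.113 and 0.213. These were positive for all 3 numbers in some comparisons and of mixed sign in others. The numbers were not read as pairs, and only the replicate block allowed for them. Of the 3 genes most like EGR3, 1 was also among its 3 over the 21 libraries. Without counts, the precision of low genes such as EGR2 and EGR3 is not known from depth, and rLog values understate their differences. Nothing told treatment apart from time in culture against untreated cells.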
